A study of Gallus gallus with 12 samples.

Results

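This report describes the liver of chickens fed a high-fat diet (HFD) against the liver of chickens fed a normal diet (ND), across all genes. It uses 6 of the 12 samples of the series, 3 livers for each diet, chosen by their tissue and diet labels. All birds were female dwarf-type Xinghua chickens that carried the dw gene, a mutation of the growth hormone receptor, so the ND controls carried it too. They were labelled as 8 weeks old, which the methods give as the age at which feeding began. Per the methods, the tissues were taken after the feeding period of some weeks, so the sampled birds were older than 8 weeks. For sequencing, the authors took HFD birds with the higher and ND birds with the lower abdominal fat rate within each diet. The effect of the diet and that of the selection on fatness therefore cannot be told apart. Expression was measured by RNA sequencing of bulk liver and given as FPKM, mapped fragments corrected for transcript length and for the size of the library. The files held 18332 genes, and 11181 of them averaged 1 FPKM or more across the 6 livers and were tested.

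In birds the liver, not the adipose tissue, is the main site of fatty acid synthesis. Glucose is broken down to acetyl-CoA, which acetyl-CoA carboxylase and fatty acid synthase turn into fatty acids. These are esterified to triglycerides and leave the liver in very low density lipoprotein. The same organ oxidises fatty acids, makes glucose and ketone bodies between meals, stores glycogen, turns cholesterol into bile acids and disposes of amino acid nitrogen as uric acid, which is built through purine synthesis.

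Each liver had 10799 to 11270 genes at 1 FPKM or more, and the 10 most expressed genes took 25.6% to 30.1% of the summed FPKM. The hepatocyte markers were present in every bird, with 17 of 18 at a mean of 1 FPKM or more. Their summed level was 114200 to 133300 FPKM in HFD and 109900 to 128900 FPKM in ND. ALB, serum albumin, had 72222, 62646 and 64914 FPKM in HFD birds 1 to 3 and 80171, 43988 and 64960 FPKM in ND birds 1 to 3. Muscle and exocrine pancreas markers were at or near 0, with 10 of 11 and 9 of 10 markers under a mean of 1 FPKM. Because whole tissue was sequenced, fewer cells of a type and less RNA per cell cannot be told apart.

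Separation of the birds was used as the basic description. A gene was called higher in every HFD bird when its lowest HFD bird lay above its highest ND bird, and lower in the opposite case. By this rule 1798 genes (16.1% of those tested) were higher and 723 genes (6.47%) were lower in every HFD bird. With limma on log2(FPKM + 1) and an unadjusted p under 0.05, 1276 genes (11.4%) were higher and 498 genes (4.45%) were lower. After Benjamini-Hochberg adjustment, 6 genes (0.0537%) passed an adjusted p of 0.05, and 2 of them were higher and 4 were lower. The methods name another threshold, a log2 fold change of 0.5 or more in size with a p up to 0.001, without saying whether that p is adjusted. Taken as an unadjusted p from limma, 53 higher and 25 lower genes passed it. All log2 fold changes below are HFD over ND on the log2(FPKM + 1) scale, where changes of weakly expressed genes come out too small.

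The surplus of higher genes depended on the scaling. Under quantile normalization, 1412 genes were higher and 1228 lower in every HFD bird, and the share of higher genes among those with an unadjusted p under 0.05 moved from 71.9% to 51.4%. There 863 genes were lower at that p. The median log2 fold change over all genes tested was 0.09 as deposited and 0.00 under quantile normalization. Medians of gene groups are therefore to be read against that of all genes. Among the 2642 genes averaging 20 FPKM or more, 413 were higher and 283 were lower in every HFD bird. Among all 11181 genes these counts were 1798 and 723. Lower genes were thus a larger part of the well-expressed genes than of all genes. The shares over all genes given below do not allow for this.

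**Figure D1:**
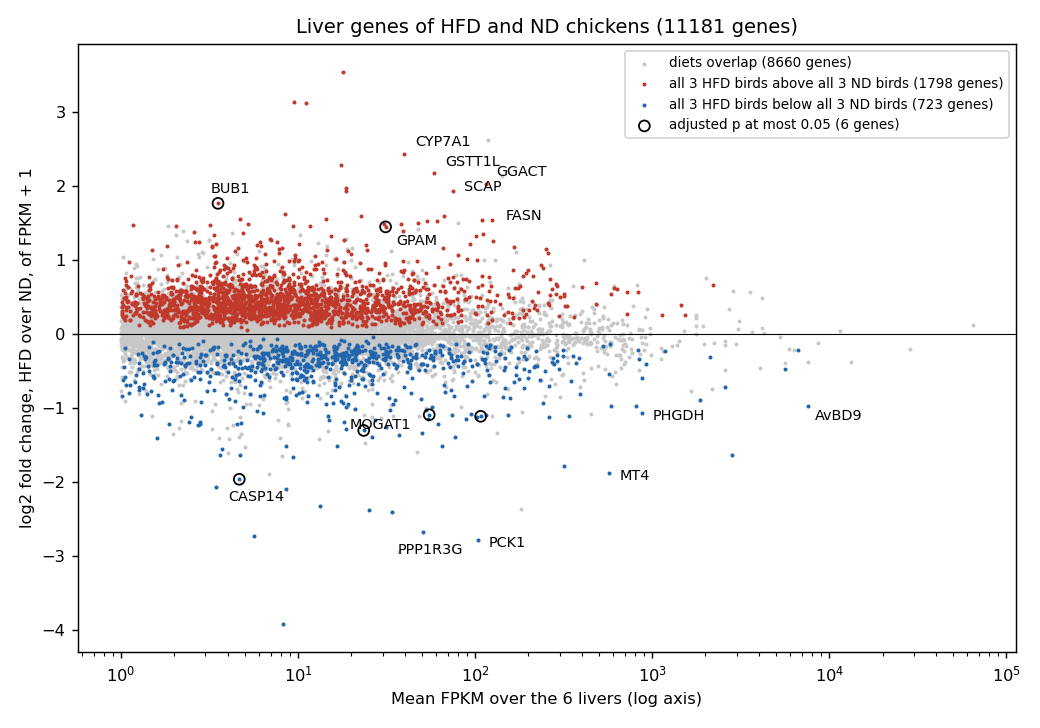
Log2 fold change of HFD over ND, computed on log2(FPKM + 1), against the mean FPKM over the 6 livers on a log axis, 1 point for each of 11181 genes. Red points are the 1798 genes that were higher and blue points the 723 genes that were lower in every HFD bird, grey points overlapped, and rings mark the 6 genes past an adjusted p of 0.05. CYP7A1 and FASN stand among the higher genes, PCK1 and PHGDH among the lower ones.

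The 6 genes past the adjusted threshold included 2 acyltransferases of glycerolipid assembly, in opposite directions. GPAM, the mitochondrial acyltransferase that starts triglyceride synthesis from glycerol 3-phosphate, had 46.9, 52.1 and 39.5 FPKM in HFD birds 1 to 3 and 13.8, 17.96 and 17.1 FPKM in ND birds 1 to 3. Its groups lay far apart, and GPAM rose by a log2 fold change of 1.45 (SE 0.16, adjusted p = 0.0492). MOGAT1, which acylates monoacylglycerol, had 33.6, 37.0 and 33.9 FPKM in HFD and 75.0, 75.8 and 75.1 FPKM in ND. The birds of each diet were close to each other, and MOGAT1 fell by 1.09 on the log2 scale (SE 0.11, adjusted p = 0.0492).

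BUB1, a kinase of the mitotic spindle checkpoint, had 6.11, 7.25 and 4.70 FPKM in HFD and 0.92, 0.98 and 1.24 FPKM in ND. It rose in HFD by a log2 fold change of 1.77 (SE 0.18, adjusted p = 0.0492) with no overlap. CASP14, a caspase best known in mammals from skin, had 0.72, 1.31 and 2.03 FPKM in HFD and 7.43, 8.78 and 7.68 FPKM in ND, and fell by 1.96 (SE 0.22, adjusted p = 0.0492). The remaining called genes carry only locus names, LOC107055673 with a log2 fold change of -1.11 and LOC107051144 with -1.30, and both fell. The call of each of these 6 genes was lost without any of the 6 birds in turn, where adjusted p lay between 0.0718 and 0.189, and also with a filter of 0.1 FPKM, without a filter, under quantile normalization and without a trend. Over all alternatives the adjusted p of these genes ran from 0.00294 to 0.189. Every other gene named below had an adjusted p above 0.05 in limma, from 0.0643 upward, so for them the values and the separation of the birds are given as a description.

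The fatty acid synthesis genes that separated were all higher in HFD, at a share near that of all genes. Of 19 members tested, 4 were higher and 0 were lower in every HFD bird (21.1% and 0%, against 16.1% and 6.47% over all genes), or 4 and 1 under quantile normalization. By limma 4 had an unadjusted p under 0.05, all higher, and the median log2 fold change was 0.32 against 0.09 over all genes. FASN, fatty acid synthase, had 123, 151 and 280 FPKM in HFD and 33.1, 75.7 and 80.8 FPKM in ND (log2 fold change 1.54, SE 0.41, adjusted p = 0.218). HFD bird 3 was highest and ND bird 1 lowest, and the diets did not overlap. ACACA, acetyl-CoA carboxylase, had 115, 147 and 137 FPKM in HFD and 34.4, 88.3 and 91.0 FPKM in ND (1.01, SE 0.36). ME1, malic enzyme, which supplies the NADPH, had 81.7, 68.0 and 112 FPKM in HFD and 13.04, 32.0 and 56.9 FPKM in ND (1.53, SE 0.47). In all 3 genes ND bird 1 was the lowest of the 6 birds.

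Other genes of the same route overlapped. ACLY, which makes cytosolic acetyl-CoA from citrate, had a log2 fold change of 0.04. SCD, the stearoyl-CoA desaturase, had 703, 963 and 967 FPKM in HFD and 147, 922 and 1214 FPKM in ND, so that ND bird 1 alone was low. ELOVL6, the elongase of palmitate, had 565, 763 and 900 FPKM in HFD and 332, 496 and 616 FPKM in ND, with an overlap of HFD bird 1 and ND bird 3. The transcription factor SREBF1 had a log2 fold change of 0.42 and MLXIPL, the carbohydrate response factor ChREBP, 0.09, and both overlapped. These 5 genes were named to complete the pathway, after their values had been seen.

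Of 11 genes of polyunsaturated fatty acid synthesis, 4 were higher and 0 lower in every HFD bird (36.4% and 0%). The shares over all genes were 16.1% and 6.47%. The median log2 fold change was 0.25, against 0.09 over all genes. HSD17B12, the ketoacyl-CoA reductase of the elongation cycle, had 109, 103 and 108 FPKM in HFD and 54.4, 69.1 and 68.1 FPKM in ND (0.74, SE 0.13, adjusted p = 0.126). The elongases ELOVL2 (log2 fold change 0.64) and ELOVL5 (0.50) and the delta-5 desaturase FADS1 (0.26) were also higher in every HFD bird. FADS2, the delta-6 desaturase, overlapped between the diets, with a log2 fold change of 0.16.

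Of 17 genes of fatty acid uptake, activation and binding, 5 were higher and 0 lower in every HFD bird (29.4% and 0%). For all genes the shares were 16.1% and 6.47%. The median log2 fold change was 0.14, against 0.09 over all genes. ACSL5, an acyl-CoA synthetase, had 88.0, 77.5 and 69.6 FPKM in HFD and 21.4, 18.9 and 45.8 FPKM in ND (1.52, SE 0.31, adjusted p = 0.159). ND bird 3 was the highest of its diet but still below every HFD bird. CD36, a fatty acid translocase, was higher in every HFD bird with a log2 fold change of 0.48. So were the carrier SCP2 (0.38) and the acyl-CoA binding protein DBI (0.27). The fatty acid-binding proteins tested all overlapped. LBFABP (0.48), the most expressed member of the list at a mean of 4183 FPKM, and FABP6 (0.39) had positive fold changes. FABP7 (-0.74), FABP4 (-0.58), FABP5 (-0.15) and FABP1 (-0.14) had negative ones.

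Triglyceride genes separated in both directions. Of 23 tested, 2 were higher and 4 lower in every HFD bird (8.70% and 17.4%, against 16.1% and 6.47% over all genes). The median log2 fold change was 0.12, near the 0.09 of all genes. Without HFD bird 3 the median of the list became -0.07. Beside MOGAT1, the lower genes were the glycerol 3-phosphate acyltransferases AGPAT9 (log2 fold change -0.62) and AGPAT6 (-0.62) and the lipase PNPLA2 (-0.49), and beside GPAM, ABHD5, a coactivator of that lipase, was higher (0.59). CIDEC, a lipid droplet protein, had 43.7, 86.8 and 107 FPKM in HFD and 107, 242 and 160 FPKM in ND. HFD bird 3 and ND bird 1 overlapped by a small margin, and the log2 fold change was -1.10.

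For the export of lipid, 2 of 23 apolipoprotein and lipoprotein assembly genes were higher and 3 lower in every HFD bird (8.70% and 13%, median 0.04). The shares over all genes were 16.1% and 6.47%, and their median was 0.09. MTTP, which loads triglyceride onto apolipoprotein B, had 54.9, 74.4 and 58.1 FPKM in HFD and 39.4, 21.5 and 34.3 FPKM in ND (0.99, SE 0.24, adjusted p = 0.181). Its diets did not overlap. LCAT, the plasma cholesterol acyltransferase, and SORT1, a sorting receptor for lipoproteins, were lower in every HFD bird, each with a log2 fold change of -0.30.

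**Figure D2:**
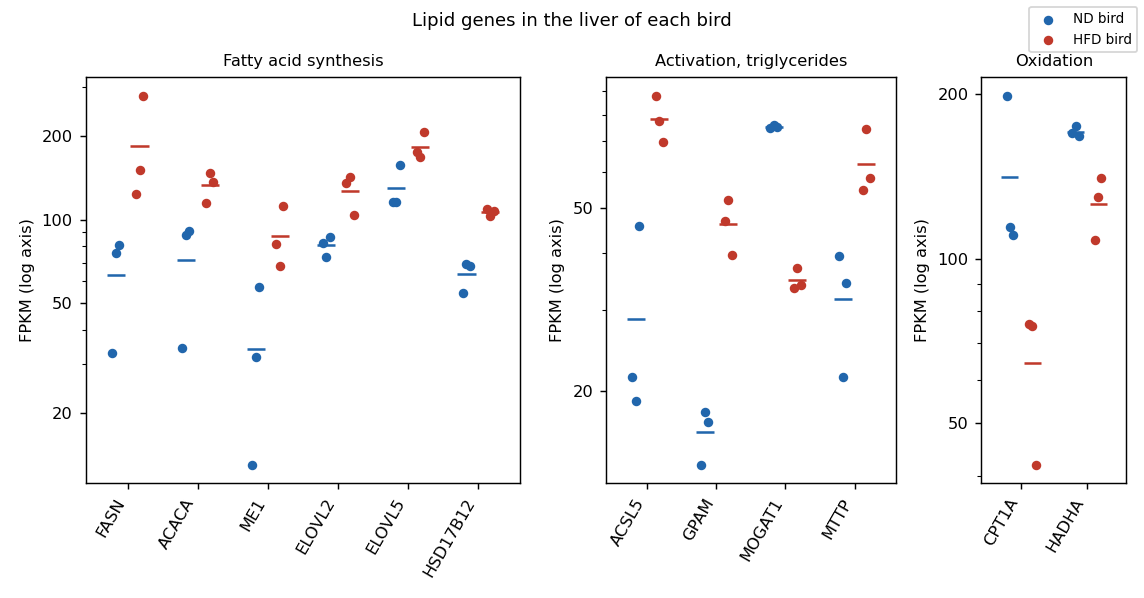
FPKM of 12 lipid genes on log axes, with 1 point for each bird, red for HFD and blue for ND, and a line at the mean of each diet (n = 3). In all 12 genes the diets do not overlap, with FASN, ACACA, ME1, GPAM and ACSL5 higher and MOGAT1, CPT1A and HADHA lower in HFD.

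Fatty acid oxidation split in 2 directions. Of 40 genes tested, 9 were higher and 7 lower in every HFD bird (22.5% and 17.5%, against 16.1% and 6.47% over all genes). The median log2 fold change was 0.06, near the 0.09 of all genes. CPT1A, which controls entry of fatty acids into mitochondria, had 76.0, 75.2 and 41.9 FPKM in HFD and 199, 114 and 111 FPKM in ND (-1.12, SE 0.30, adjusted p = 0.221). The diets did not overlap, and HFD bird 3 was lowest. HADHA, ECHS1 and ACAA1, further enzymes of the oxidation spiral, were lower in every HFD bird with log2 fold changes of -0.44, -0.40 and -0.55.

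The members higher in HFD sat at other steps of the same process. ACOX2, the peroxisomal oxidase of branched chains and bile acid precursors, had 84.2, 78.9 and 82.3 FPKM in HFD and 56.8, 49.8 and 56.0 FPKM in ND (0.59, SE 0.12). CPT2, the inner-membrane partner of CPT1A, was higher in every HFD bird with a log2 fold change of 0.65. The dehydrogenases ACAD9 (0.48) and ACADS (0.36), the peroxisomal enzymes PECR (0.54) and HSD17B4 (0.48), and ETFA (0.33), which passes electrons to the respiratory chain, also separated upward. PPARA, the nuclear receptor that drives many of these genes in mammals, overlapped with a log2 fold change of 0.23.

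Of 9 genes of ketone body metabolism, 1 was higher and 2 were lower in every HFD bird (11.1% and 22.2%). For all genes the shares were 16.1% and 6.47%. The median of the list was -0.09, against 0.09 over all genes. With sample weights it was 0.09, against 0.12 over all genes. SLC16A1, a carrier of lactate and ketone bodies, had 108, 157 and 101 FPKM in HFD and 160, 181 and 163 FPKM in ND (-0.49). HFD bird 2 lay just below the ND range, and the other HFD birds were clearly lower. BDH2, a cytosolic dehydrogenase, was higher in every HFD bird (0.53).

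Cholesterol synthesis had the largest median of the 30 function lists, 0.53, against 0.09 over all genes. Only 2 of its 25 genes were higher and 0 lower in every HFD bird (8.00% and 0%, against 16.1% and 6.47%). ND bird 2 lay within or above the HFD range for most enzymes. SQLE, squalene epoxidase, had 30.5, 22.8 and 16.8 FPKM in HFD and 8.26, 32.3 and 3.01 FPKM in ND. Without ND bird 2 the median of the list was 0.85, and without ND bird 3 it was 0.26. SCAP, the escort that carries sterol regulatory element-binding proteins to the Golgi, did separate, with 103, 107 and 141 FPKM in HFD and 33.5, 48.5 and 16.0 FPKM in ND (1.93, SE 0.36, adjusted p = 0.129). LBR, a sterol reductase of the nuclear envelope, was the other member (0.54).

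Of 23 bile acid genes, 7 were higher and 2 lower in every HFD bird (30.4% and 8.70%, against 16.1% and 6.47% over all genes). Their median was 0.33, against 0.09 over all genes. CYP7A1, the rate-limiting enzyme of bile acid synthesis from cholesterol, had 70.3, 59.6 and 67.3 FPKM in HFD and 25.9, 9.48 and 5.58 FPKM in ND (2.44, SE 0.45, adjusted p = 0.129). The HFD birds were close together and the ND birds were spread, with ND bird 1 highest. CYP27A1, of the alternative route, was lower in every HFD bird, with 476, 425 and 490 FPKM against 585, 773 and 672 FPKM in ND (-0.54). CYP8B1, which makes cholic acid, overlapped between HFD bird 1 and ND bird 2, and its log2 fold change was 1.5.

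Bile acid transporters shared the upward direction. ABCB11, the bile salt export pump, had 48.5, 56.4 and 46.8 FPKM in HFD and 26.8, 26.2 and 30.2 FPKM in ND (0.84, SE 0.13, adjusted p = 0.108). SLCO1A2, an uptake transporter of organic anions, had 182, 181 and 169 FPKM in HFD and 78.9, 53.6 and 94.3 FPKM in ND (1.25, SE 0.21, adjusted p = 0.108). SLC51B, a subunit of the basolateral bile acid exporter, was higher by a log2 fold change of 1.17 and its partner SLC51A by 0.35, and the uptake carrier SLCO1B1 was higher by 0.78, all without overlap. NR1H3, the oxysterol receptor LXR alpha, was lower in every HFD bird (-0.60). NR1H4, the bile acid receptor FXR, overlapped (0.22), as did its target NR0B2 (-0.38).

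**Figure D3:**
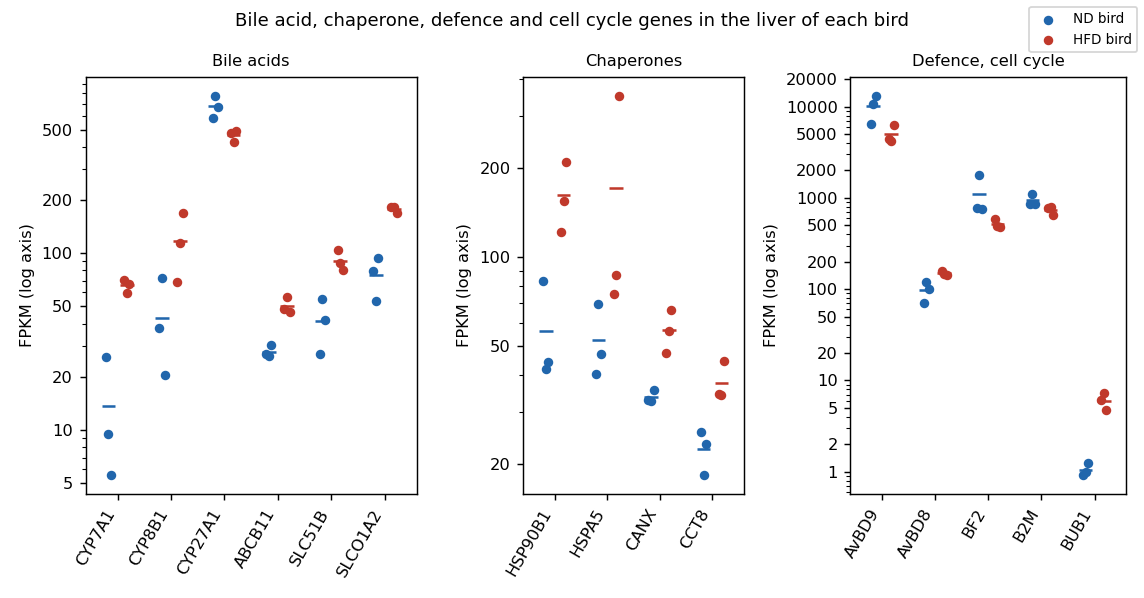
FPKM of bile acid, chaperone, defence and cell cycle genes on log axes, with 1 point for each bird, red for HFD and blue for ND, and a line at the mean of each diet (n = 3). CYP7A1, ABCB11, SLC51B and SLCO1A2 are higher in every HFD bird, CYP8B1 overlaps, HSPA5 is carried by HFD bird 3 at 350 FPKM, and AvBD9, BF2 and B2M are lower in every HFD bird.

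The list of gluconeogenesis and glycogen had 12 genes higher and 4 lower of 31 (38.7% and 12.9%, against 16.1% and 6.47% over all genes). Its median was 0.09, equal to that of all genes. PCK1, the cytosolic carboxykinase that commits carbon to glucose, had 8.75, 36.2 and 23.7 FPKM in HFD and 44.6, 290 and 217 FPKM in ND (-2.78, SE 0.75, adjusted p = 0.219). It had the most negative fold change of the well-expressed genes that separated, although ND bird 1 lay near the HFD range. PCK2, the mitochondrial form, overlapped with a log2 fold change of 0.18, at a mean of 677 FPKM against 103.5 FPKM for PCK1. Other members of the list were higher in every HFD bird. FBP1 had 1236, 1188 and 1267 FPKM in HFD and 1134, 836 and 1145 FPKM in ND (0.26), and MDH1 rose by 0.33. G6PC, glucose 6-phosphatase, had 1101, 1748 and 890 FPKM in HFD and 1646, 2598 and 1994 FPKM in ND, with an overlap of HFD bird 2 and ND bird 1 (-0.77). LDHB, a lactate dehydrogenase subunit, had 277, 299 and 273 FPKM in HFD and 568, 446 and 487 FPKM in ND (-0.82, SE 0.14, adjusted p = 0.111). CREB3L3, a fasting-responsive factor in mammals, was lower in every HFD bird (-0.50).

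Most of the separated upward members belong to glycogen. GBE1, the branching enzyme, had 92.0, 96.1 and 106 FPKM in HFD and 41.5, 16.0 and 47.5 FPKM in ND (1.60, SE 0.37, adjusted p = 0.177). PPP1R3B and PPP1R3C target protein phosphatase 1 to glycogen and thereby favour its synthesis. PPP1R3B had 17.6, 22.6 and 25.6 FPKM in HFD and 9.50, 5.10 and 6.20 FPKM in ND (1.55, SE 0.23, adjusted p = 0.108). PPP1R3C had 23.1, 15.2 and 51.9 FPKM in HFD and 7.85, 2.27 and 5.10 FPKM in ND (2.29, SE 0.49). Another targeting subunit, PPP1R3G, went the other way, with 4.68, 12.1 and 15.02 FPKM in HFD and 40.4, 197 and 37.0 FPKM in ND (-2.68, SE 0.67), where ND bird 2 stood apart.

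Genes of glycogen breakdown separated upward as well, among them PHKA2, a phosphorylase kinase subunit (1.08). PYGL, the liver phosphorylase, separated narrowly (0.15), with 124.6, 123.0 and 123.4 FPKM in HFD and 93.5, 121.7 and 122.0 FPKM in ND. For PYGL only ND bird 1 was clearly lower. The primer GYG1 (0.64) and the phosphoglucomutases PGM1 (0.62) and PGM2 (0.63) were higher in every HFD bird too. GYS2, liver glycogen synthase, overlapped with a log2 fold change of -0.13. Of 25 glycolysis genes, 9 were higher and 1 lower in every HFD bird, or 6 and 1 under quantile normalization. As deposited the shares were 36% and 4%, against 16.1% and 6.47% over all genes. The median was 0.18, against 0.09 over all genes. The higher ones included GPI (0.67), TPI1 (0.62) and PGK1 (0.46), and 3 subunits of pyruvate dehydrogenase, which turns pyruvate into acetyl-CoA. Of these DLAT had 47.3, 54.0 and 67.0 FPKM in HFD and 25.3, 29.9 and 40.5 FPKM in ND (0.81).

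**Figure D4:**
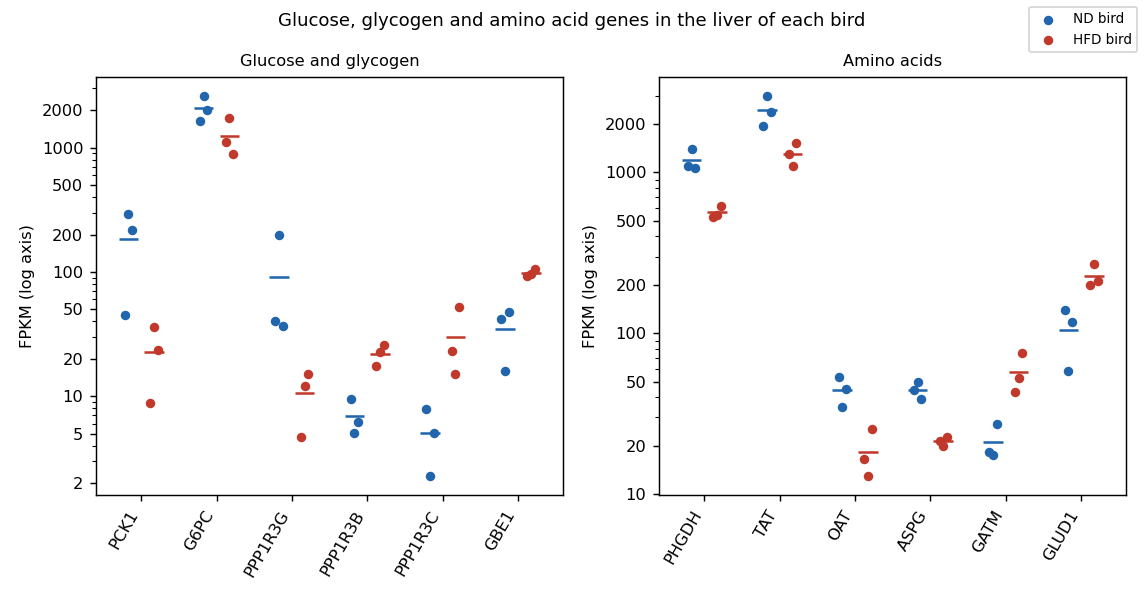
FPKM of glucose, glycogen and amino acid genes on log axes, with 1 point for each bird, red for HFD and blue for ND, and a line at the mean of each diet (n = 3). PCK1 and PPP1R3G lie lower and PPP1R3B, PPP1R3C and GBE1 higher in every HFD bird, G6PC overlaps, and among amino acid genes PHGDH, TAT, OAT and ASPG are lower while GATM and GLUD1 are higher.

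Amino acid genes separated in both directions. Of 49 breakdown genes, 8 were higher and 7 lower in every HFD bird (16.3% and 14.3%, against 16.1% and 6.47% over all genes, median 0.02). TAT, tyrosine aminotransferase, had 1302, 1099 and 1519 FPKM in HFD and 1952, 2982 and 2372 FPKM in ND (-0.89, SE 0.21, adjusted p = 0.178). HGD (-0.65) and FAH (-0.49), of later steps of tyrosine breakdown, were lower in every HFD bird too. GSTZ1, which acts between them, was higher (0.71). OAT, ornithine aminotransferase, had 16.5, 12.9 and 25.3 FPKM in HFD and 53.1, 34.7 and 44.7 FPKM in ND (-1.26, SE 0.26). ASPG, an asparaginase, had 21.3, 19.99 and 22.5 FPKM in HFD and 44.6, 49.8 and 39.2 FPKM in ND (-1.03, SE 0.13, adjusted p = 0.0676). GLUD1, glutamate dehydrogenase, was higher in every HFD bird (1.18), as was CDO1, the dioxygenase of cysteine (0.93).

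Serine synthesis began with a clear separation. PHGDH, the dehydrogenase that diverts 3-phosphoglycerate to serine, had 532, 543 and 622 FPKM in HFD and 1102, 1407 and 1060 FPKM in ND (-1.06, SE 0.16, adjusted p = 0.108). MTHFD1, a folate enzyme, was lower in every HFD bird (-0.74). PSAT1 (-1.05) and SHMT1 (-0.86), the next serine and glycine enzymes, were lower on average but overlapped. GATM, the first enzyme of creatine synthesis, had 42.8, 52.8 and 75.4 FPKM in HFD and 18.2, 17.5 and 27.4 FPKM in ND (1.39, SE 0.25, adjusted p = 0.126). In all, 6 of 33 genes of serine, glycine and 1-carbon metabolism were higher and 3 lower in every HFD bird (18.2% and 9.09%, median 0.19). Both shares were near those of all genes, 16.1% and 6.47%.

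ATF4, the transcription factor of amino acid shortage, had 385, 317 and 283 FPKM in HFD and 275, 182 and 196 FPKM in ND (0.60, SE 0.20). Of 23 listed genes of that response, ATF4 included, 5 were higher and 0 lower in every HFD bird (21.7% and 0%, median 0.17). Over all genes the shares were 16.1% and 6.47%. Beside ATF4 and its partner CEBPG (0.46), they were the aminoacyl-tRNA synthetases AARS (0.56), SARS (0.61) and GARS (0.32). The other members tested overlapped, among them ASNS (0.28), ATF3 (0.28), DDIT3 (0.08), CHAC1 (-0.18), STC2 (-0.24) and SLC7A5 (-0.48). In the whole list 15 fold changes were positive and 8 negative. Under quantile normalization the median of this list was 0.04 and 4 genes were higher.

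Of 68 endoplasmic reticulum chaperone and secretion genes, 19 were higher and 0 lower in every HFD bird (27.9% and 0%). For all genes the shares were 16.1% and 6.47%. The median was 0.22, against 0.09 over all genes, and 56 fold changes were positive. Under quantile normalization 17 were higher and 2 lower. HSP90B1, the chaperone GRP94, had 122, 154 and 209 FPKM in HFD and 82.8, 42.0 and 44.4 FPKM in ND (1.54, SE 0.30, adjusted p = 0.140). HSPA5, the chaperone BiP, had 74.9, 87.1 and 350 FPKM in HFD and 40.4, 69.6 and 46.9 FPKM in ND (1.36, SE 0.55), so its mean rested on HFD bird 3. CANX, calnexin, had 47.5, 56.4 and 66.4 FPKM in HFD and 33.0, 32.6 and 35.6 FPKM in ND (0.72, SE 0.15), with the ND birds close together and all below the HFD birds. CRELD2 (0.87) and HYOU1 (0.66), further stress-induced chaperones, and EIF2AK3, the sensor kinase PERK (0.48), separated the same way. EIF2AK3 was highest in HFD bird 3, at 11.75 FPKM. The other stress sensors of the list, ATF6 (-0.28) and ERN1 (-0.07), overlapped. XBP1 (0.30), DNAJB9 (0.38) and HERPUD1 (0.98) overlapped too, HERPUD1 with 134 FPKM in HFD bird 3.

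Cytosolic chaperones and the proteasome separated mostly upward. All genes tested did so too, with 16.1% higher and 6.47% lower as deposited. Under quantile normalization 1412 of all 11181 genes were higher and 1228 lower. Of 43 cytosolic heat shock genes, 10 were higher and 0 lower in every HFD bird (23.3% and 0%, median 0.31), or 8 and 3 under quantile normalization. Of these 10 genes 5 encode subunits of the chaperonin that folds actin and tubulin, with CCT8 at 34.4, 34.3 and 44.4 FPKM in HFD and 25.6, 18.4 and 23.3 FPKM in ND (0.73). Of 40 proteasome genes, 12 were higher and 1 lower (30% and 2.50%, median 0.11), or 9 and 4 under quantile normalization. PSMA2, a subunit of the core particle, had 50.8, 56.0 and 61.1 FPKM in HFD and 41.7, 25.9 and 33.9 FPKM in ND (0.73). By contrast 0 of 72 cytosolic ribosomal protein genes separated in either direction, with a median of -0.08, and 1 was higher and 3 lower under quantile normalization.

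Respiratory chain genes were seldom higher in every HFD bird. Of 73 genes of the respiratory chain and ATP synthase, 2 were higher and 7 lower in every HFD bird (2.74% and 9.59%, median -0.02). Over all genes the shares were 16.1% and 6.47%. All members of this list averaged over 20 FPKM, and of the 2642 such genes 413 were higher and 283 lower. The 2 higher members were NDUFA9 (0.51) and NDUFS6 (0.34). NDUFV1, a subunit of complex I, had 172, 168 and 175 FPKM in HFD and 206, 217 and 231 FPKM in ND (-0.34), and COX8A of complex IV was also lower (-0.47). In the citric acid cycle and its entry 4 of 20 genes were higher and 4 lower (20% and 20%, median 0.06), against 16.1% and 6.47% over all genes. PDHX, a component of the pyruvate dehydrogenase complex, had 24.6, 24.1 and 26.7 FPKM in HFD and 16.2, 13.8 and 18.5 FPKM in ND (0.61). PDK3, a kinase that inhibits that complex, had 34.5, 39.8 and 39.6 FPKM in HFD and 23.7, 27.9 and 23.6 FPKM in ND (0.58). OGDH (-0.26) and DLST (-0.33), which form the oxoglutarate dehydrogenase complex, were lower, whereas FH, fumarase (0.38), and SUCLG2, a succinyl-CoA ligase subunit (0.38), were higher.

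Of 38 antioxidant and glutathione genes, 11 were higher and 4 lower in every HFD bird, or 11 and 1 under quantile normalization. As deposited the shares were 28.9% and 10.5%, against 16.1% and 6.47% over all genes. The median was 0.11, near the 0.09 of all genes. SOD1, the cytosolic superoxide dismutase, had 828, 1033 and 737 FPKM in HFD and 575, 577 and 575 FPKM in ND (0.57). The ND birds were nearly equal and all lay below the HFD birds. MSRB3, a methionine sulfoxide reductase, had 15.8, 19.1 and 17.5 FPKM in HFD and 7.54, 4.77 and 5.09 FPKM in ND (1.46, SE 0.18, adjusted p = 0.0643). PRDX1 (0.65) and the regulator NFE2L2 (0.58) were higher, and SRXN1, which repairs peroxiredoxins, was lower (-0.84).

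Drug and lipid-modifying enzymes separated gene by gene. Of 43 cytochrome P450 and conjugation genes, 8 were higher and 3 lower in every HFD bird (18.6% and 6.98%, median 0.18). These shares were near the 16.1% and 6.47% of all genes. CYP4B1, a fatty acid and xenobiotic hydroxylase, had 124, 242 and 89.9 FPKM in HFD and 413, 505 and 540 FPKM in ND (-1.79, SE 0.34, adjusted p = 0.129). GSTT1L, a glutathione transferase of the theta class by its symbol, had 30.9, 121 and 147 FPKM in HFD and 13.2, 15.6 and 25.7 FPKM in ND (2.17, SE 0.56), where HFD bird 1 lay just above ND bird 3. GSTA3 was lower (-1.22) and the sulfotransferase SULT1C3 higher (1.32) in every HFD bird.

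Immune genes showed few separated members, most of them lower. Of 31 interferon and antigen presentation genes, 1 was higher and 5 were lower in every HFD bird (3.23% and 16.1%). Among all genes 16.1% were higher and 6.47% lower. In the list 25 genes had a negative fold change, and the median was -0.31, against 0.09 over all genes. BF2, a class I heavy chain of the chicken major histocompatibility complex, had 583, 493 and 484 FPKM in HFD and 784, 1786 and 752 FPKM in ND (-0.97, SE 0.33, adjusted p = 0.258). BF1 had 710, 771 and 571 FPKM in HFD and 902, 1522 and 786 FPKM in ND (-0.60). ND bird 2 was the highest in both, and because BF1 and BF2 are close copies the division of reads between them is uncertain. B2M, the light chain (-0.34), and the peptide transporter TAP2 (-0.46) were lower in every HFD bird too. Without ND bird 2 the median of the list was -0.09, and with sample weights it turned to 0.03.

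Markers of immune cells varied between birds at the same time. The summed level of 19 lymphocyte markers was 105 to 162 FPKM in HFD and 110 to 672 FPKM in ND, with IGLL1, the immunoglobulin light chain, at 557 FPKM in ND bird 1 and 346 FPKM in ND bird 2. IGLL1 made up most of the sum in these birds, and its log2 fold change was -2.36. Of the 14 lymphocyte markers tested, 10 had a positive and 4 a negative fold change, with a median of 0.11. The sum of 11 macrophage markers was 63.2 to 201 FPKM in HFD and 68.9 to 543 FPKM in ND, highest in ND bird 1. None of these lymphocyte or macrophage markers was at 0 in every liver, and 0 of the 14 and 0 of the 9 tested separated the diets. Their part in the antigen presentation values was not tested.

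AvBD9, a beta-defensin and the most expressed gene of the host defence list that separated, had 4467, 4243 and 6325 FPKM in HFD and 6506, 10666 and 13064 FPKM in ND (-0.97, SE 0.29, adjusted p = 0.239). HFD bird 3 and ND bird 1 lay close together. AvBD8 went the other way, with 160, 145 and 144 FPKM in HFD and 71.2, 120 and 101 FPKM in ND (0.64). Of 35 inflammation and host defence genes, 1 was higher and 2 lower in every HFD bird (2.86% and 5.71%, median 0.04). Among all genes 16.1% were higher and 6.47% lower, with a median of 0.09.

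Few genes of secreted plasma proteins separated, against shares of 16.1% higher and 6.47% lower and a median of 0.09 over all genes. In 49 complement and coagulation genes 4 were higher and 1 lower in every HFD bird (8.16% and 2.04%, median -0.01), or 1 and 1 under quantile normalization. SERPINA1, the antitrypsin, was among the higher ones (0.54). Of 28 acute phase and iron proteins 3 were higher and 2 lower (10.7% and 7.14%, median 0.12). CP, ceruloplasmin, the copper oxidase of plasma, had 136, 104 and 87.4 FPKM in HFD and 67.5, 49.9 and 38.2 FPKM in ND (1.07, SE 0.24). FTH1, the ferritin heavy chain, had 5322, 3899 and 4913 FPKM in HFD and 7746, 6488 and 5509 FPKM in ND (-0.48). In the extracellular matrix list 1 of 51 genes was higher and 2 were lower (1.96% and 3.92%, median -0.10), or 1 and 4 under quantile normalization, and the 10 tested stellate cell and fibroblast markers all overlapped.

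Cell cycle genes were higher in every HFD bird at a share near the 16.1% of all genes, of which 6.47% were lower. Of 46 tested, BUB1 included, 7 were higher and 1 lower in every HFD bird (15.2% and 2.17%, median 0.10), or 2 and 2 under quantile normalization. CDK1, the mitotic kinase, had 5.16, 4.27 and 5.28 FPKM in HFD and 3.85, 3.55 and 3.50 FPKM in ND (0.35). BUB3, a further spindle checkpoint protein, had 19.96, 19.93 and 18.6 FPKM in HFD and 16.5, 16.04 and 14.9 FPKM in ND (0.29). PCNA, the sliding clamp of DNA replication and the most expressed gene of the list, overlapped (0.09). TOP2A, a topoisomerase of dividing cells, overlapped at 1.64 to 2.42 FPKM in HFD and 1.65 to 4.01 FPKM in ND.

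Clock and hormone genes separated in part. Of 19 circadian genes, 6 were higher and 0 lower in every HFD bird (31.6% and 0%, median 0.22). All genes tested had 16.1% and 6.47%, with a median of 0.09. CRY2, a repressor of the clock, had 30.5, 33.7 and 39.2 FPKM in HFD and 24.8, 20.1 and 21.7 FPKM in ND (0.61). The weakly expressed HLF (0.85, mean 4.10 FPKM) and BHLHE41 (1.02, mean 3.99 FPKM) separated the same way. Both were highest in HFD bird 3, at 8.11 and 9.27 FPKM. The core activators CLOCK (0.22) and ARNTL (0.20) overlapped. The time of day at which the birds were sampled is not given in the sources used here.

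In the growth hormone, IGF and insulin axis, all birds carry the mutated growth hormone receptor. Of 33 genes of this axis, 7 were higher and 2 lower in every HFD bird (21.2% and 6.06%, median 0.03), or 7 and 5 under quantile normalization. As deposited, 16.1% of all genes were higher and 6.47% lower. GRB14, an adaptor that restrains the insulin receptor in mammals, had 15.7, 19.3 and 15.01 FPKM in HFD and 10.5, 6.43 and 8.25 FPKM in ND (0.93, SE 0.19). STAT5B, the transcription factor downstream of the growth hormone receptor, was lower in every HFD bird (-0.33). DIO1, a deiodinase that can activate thyroid hormone, had 46.6, 41.7 and 39.4 FPKM in HFD and 30.6, 23.8 and 31.7 FPKM in ND (0.56). DIO3, which inactivates it, had 0.75, 4.47 and 3.07 FPKM in HFD and 14.7, 52.3 and 4.91 FPKM in ND (-2.33, SE 0.77), with ND bird 2 far above the rest. HNF4A, a nuclear receptor that maintains hepatocyte genes, had 20.8, 18.1 and 27.9 FPKM in HFD and 9.83, 6.08 and 9.10 FPKM in ND (1.32, SE 0.22, adjusted p = 0.108), and it was the single one of 17 tested hepatocyte markers that separated.

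**Figure D5:**
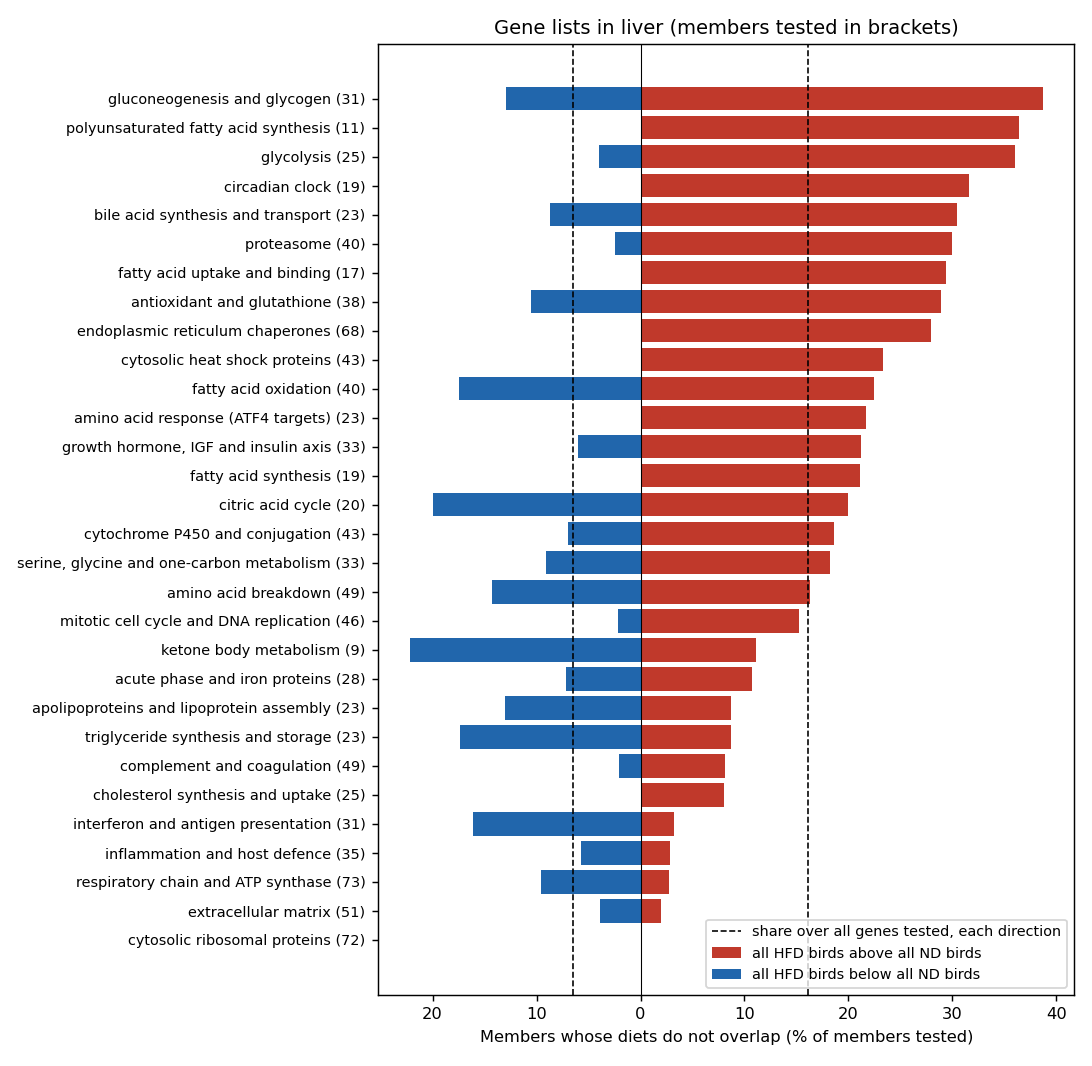
Share of the tested members of 30 function lists that were higher (red, to the right) or lower (blue, to the left) in every HFD bird, in percent, with the number tested in brackets. Dashed lines give the share over all genes tested, 16.1% higher and 6.47% lower. The gluconeogenesis and glycogen list reaches 38.7% higher, the ketone list 22.2% lower, and the ribosomal proteins 0% in both directions.

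Outside these lists, the well-expressed genes with the strongest separation came from several functions. GGACT, which cleaves gamma-glutamylamines, had 150, 184 and 203 FPKM in HFD and 18.6, 46.2 and 88.5 FPKM in ND (2.03, SE 0.49). HES4, a transcriptional repressor of the Notch pathway, had 32.7, 33.6 and 37.3 FPKM in HFD and 12.4, 7.03 and 13.9 FPKM in ND (1.60, SE 0.23, adjusted p = 0.108). COMTD1, a methyltransferase by its symbol, was higher as well (1.5), and so were RBP (1.48) and SERPINA3 (1.48), of which the first was carried by HFD bird 1.

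On the lower side the metallothioneins, which bind zinc and copper, stood out by size. MT4 had 346, 350 and 78.6 FPKM in HFD and 385, 1362 and 908 FPKM in ND (-1.88, SE 0.66), and MT3 had 13.7, 12.2 and 0.73 FPKM in HFD and 15.3, 71.1 and 38.9 FPKM in ND (-2.38, SE 0.87). In both, HFD bird 3 was lowest and ND bird 1 lay just above the HFD range. The phosphate carrier SLC20A1 (-1.51), the magnesium carrier SLC41A3 (-1.37), the monocarboxylate carrier SLC16A5 (-1.15), the phosphatase DUSP16 (-1.15) and the amine oxidase AOC1 (-1.11) were lower in every HFD bird. SLC41A3 had the lowest adjusted p of these 7, with 19.5, 24.5 and 17.2 FPKM in HFD and 43.7, 64.2 and 54.9 FPKM in ND (SE 0.19, adjusted p = 0.0985).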

How the data were processed

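The authors extracted RNA with Trizol and sequenced 12 samples (BGISEQ-500), of which the 6 livers were used. The authors deposited FPKM values to 2 decimals. The submitters' processing notes list HISAT2 2.0.4, Bowtie2 2.2.5 and RSEM 1.2.12. The genome build and the strand setting are not given in the sources used here, so reads of overlapping genes may be mixed. The FPKM files hold no counts and low values showed no whole-read steps, so the depth is unknown. For 639 genes the symbol was taken from RefSeq (GRCg7b). Genes averaging 1 FPKM or more were tested with limma 3.58.1 (R 4.3.3) on log2(FPKM + 1), HFD against ND, eBayes with trend, two-sided, with Benjamini-Hochberg adjustment. The fit was tested on simulated data. The replicates are individually caged birds per the methods. An exact permutation test of 3 against 3 cannot go below p = 0.1.

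Members of 30 function and 11 marker lists, and the lists themselves, were chosen with earlier results of these data known. Named were genes past the adjusted threshold, up to 6 separated members per list averaging 10 FPKM or more, by absolute log2 fold change, and the 15 highest and 15 lowest log2 fold changes among separated genes averaging 20 FPKM or more with a symbol. Further members below that mean, or that overlapped, were named after their values were seen. Some genes that the rule selects are not reported here. Alternatives were another pseudocount, other filters, quantile and equal-sum scaling, no trend, sample weights, a fit of all 12 samples, a replicate block, and leaving out each bird.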

Additional observations from a re-analysis of the deposited data

How the results depend on the processing

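The counts of called genes depended on the settings. Of the 151 named genes, 0 changed direction under any alternative run. These genes had been chosen because their birds separated by diet, so most alternatives could not reverse them. Their constant direction is therefore no measure of robustness. At an adjusted p of at most 0.05 (2 higher and 4 lower), limma gave 0 and 0 with a filter of 0.1 FPKM, with no filter, with quantile normalization and without a trend, 1 higher with a filter of 5 FPKM, 93 and 36 with sample weights, 105 and 41 in the fit of all 12 samples, and 0 to 3 higher and 0 to 1 lower when a bird was left out. Sample weights and the fit of 12 samples shared 81 of their 129 and 146 genes. At an unadjusted p under 0.05 (1276 and 498), the filter of 5 FPKM gave 835 higher, quantile normalization 863 lower, sample weights 2397 and 789, and leaving out a bird 711 to 2031 higher and 312 to 629 lower. At the threshold of the methods (53 and 25), quantile normalization gave 35 higher, sample weights 148 and 59, all 12 samples 130 and 52, and leaving out a bird 22 to 54 higher and 16 to 34 lower. Genes without overlap (1798 and 723) numbered 1102 higher with the filter of 5 FPKM and 1228 lower with quantile normalization. With a bird left out they numbered 2165 to 3603 higher and 952 to 1462 lower, since 2 birds separate more easily than 3. The birds whose removal moved a count by over 1.5 times included each of the 6. At an unadjusted p under 0.05 the higher genes numbered 711 without HFD bird 2, 764 without ND bird 2, 794 without HFD bird 3 and 2031 without ND bird 1, and at the threshold of the methods 22 without ND bird 2 and 23 without HFD bird 2. The cause of these shifts was not tested.

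HFD and ND birds with the same replicate number were different birds, so the number paired no bird with itself. Their deviations correlated by 0.07, 0.04 and -0.05 across genes, and those of unequal numbers by -0.13 to 0.11. Whether equal numbers shared a processing step was not tested. With the replicate block, 1 higher and 1 lower gene had an adjusted p of at most 0.05, of which 0 were among the 6 genes named, and the threshold of the methods gave 40 lower genes.

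Of the list medians, 2 reversed: interferon and antigen presentation with sample weights (0.03) and triglyceride synthesis and storage without HFD liver replicate 3 (-0.069, and up to 0.155 without another bird). A further 35 moved, such as that of ketone body metabolism to 0.09 with sample weights, and 443 stayed close.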

Other observations

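Purine synthesis, through which birds dispose of nitrogen, is described here as a group put together after its values were seen, so it carries no test. Of 16 genes tested, 2 were higher and 8 were lower in every HFD bird, beside 16.1% higher and 6.47% lower over all genes. The median log2 fold change was -0.38 against 0.09 over all genes. ATIC, which closes the purine ring, had 1675, 2162 and 2082 FPKM in HFD birds 1 to 3 and 3192, 3269 and 3189 FPKM in ND birds 1 to 3 (-0.71). ADSL, adenylosuccinate lyase, had 118, 222 and 164 FPKM in HFD and 314, 407 and 349 FPKM in ND (-1.12). XDH, xanthine dehydrogenase, which makes uric acid, had 61.2, 51.0 and 117 FPKM in HFD and 139, 185 and 142 FPKM in ND (-1.09). GART (-0.30), PRPS2 (-0.40) and IMPDH2 (-0.35) were lower in every HFD bird, PPAT and PAICS overlapped because HFD bird 3 was high, and GMPS was higher (0.46). Under quantile normalization the counts were 1 higher and 7 lower, beside 1412 and 1228 of all 11181 genes.

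RNA-binding proteins of the SRSF and HNRNP families, likewise grouped after their values were seen, separated mostly upward. Of 27 tested, 9 were higher and 2 lower in every HFD bird (8 and 2 under quantile normalization). All genes tested also separated mostly upward, with 16.1% higher and 6.47% lower. The families had 23 positive fold changes and a median of 0.31 against 0.09 over all genes. SRSF2, a splicing factor, had 50.2, 55.2 and 51.6 FPKM in HFD and 36.05, 28.9 and 28.4 FPKM in ND (0.74). HNRNPA1 went the other way (-0.33).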
